A study of Sus scrofa with 12 samples.

Results

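Elastic fibres give the annulus fibrosus, the layered fibrous ring of the intervertebral disc, its recoil after stretch. They are built from a core of elastin laid on a scaffold of fibrillin microfibrils, with fibulins at the interface and microfibril-associated glycoproteins along the microfibril surface. In the disc, elastic fibres run within and between the lamellae, and between the collagen bundles they bridge. The genes described here are 10 named members of that system: elastin (ELN), the fibrillins FBN1 and FBN2, the fibulins FBLN1, FBLN2, FBLN5 and FBLN7, and the microfibril-associated proteins MFAP2, MFAP4 and MFAP5. They were taken by gene symbol from a list of names, and 8 of the 10 were matched among the 22198 genes of the count table. The identifiers of MFAP4 and MFAP5 were not matched there, and both are not analysed here.

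Transcripts were measured by mRNA sequencing of the central ventral annulus fibrosus of domestic pigs (a Duroc cross of Large White × Landrace) of both sexes, aged 3 to 4 months. The Non-loaded Controls were 6 anesthetized pigs that received no manual loading, with 1 library each. The Hyperloaded group was 4 anesthetized pigs in which spinal manipulative therapy was applied to both sides of vertebra L3 once every 1 or 2 min for 4 h, and it gave 6 libraries, since 2 samples were isolated a further time. The labels name neither the pig nor the interval of any Hyperloaded library, so the 6 were taken as separate, and p-values are too small to the extent that libraries share a pig. Tissue was taken when the session ended.

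The libraries held 12484228 to 24897110 counts. Expected counts were rounded, scaled by TMM (a factor per library that balances its composition against the others) and given as counts per 1000000 counts (CPM). Of all genes, 12597 had 10 or more counts in each library of a group, and their levels were compared with the 2-sided quasi-likelihood F test of edgeR. Its p-values were adjusted by the Benjamini-Hochberg method, and a change was called at an adjusted p under 0.05. COL2A1, the main collagen of cartilage, took 11.4 to 44.8% of counts in controls and 0.236 to 12.5% in Hyperloaded libraries. The 9 matched of 11 cartilage markers summed to 128443 to 672871 CPM and 2539 to 155832 CPM. Of the 8 tested, 0 were called higher, 1 lower and 7 not. COL2A1 itself was not called (log2 fold change −2.56, edgeR adjusted p = 0.0690). COL1A2, a chain of the main fibrous collagen of tendon and outer annulus, took 2.65 to 18.9% and 7.70 to 23.7%, and took more counts than COL2A1 in control replicates 5 and 6 and in every Hyperloaded library. Of the outer annulus and tendon markers (7 of 9 matched, all tested), 4 were called higher in Hyperloaded libraries, 1 lower and 2 not. Summed skeletal muscle markers (3 of 11 named were matched) were at 6.05 to 140 CPM in controls, and at 29104, 3057 and 808 CPM in Hyperloaded replicates 2, 6 and 3. Macrophage markers (8 of 12 matched) summed to 14.3 to 143 CPM in controls and 136 to 280 CPM in Hyperloaded libraries. Smooth muscle markers (6 of 8 matched), of cells that also make elastin, summed to 255 to 593 CPM and 350 to 842 CPM. Endothelial markers (4 of 8 matched) summed to 415 to 730 CPM and 322 to 526 CPM, with 2 of 4 called lower. The 2 matched of 6 adipocyte markers summed to 0.852 to 6.46 CPM in controls, to 36.1, 16.1, 25.3 and 40.5 CPM in Hyperloaded replicates 2, 3, 4 and 6, and to 1.56 and 2.84 CPM in replicates 1 and 5. The part of these cell types in the members' values was not tested. No matched marker of these lists was at 0 in every library. In a bulk sample, fewer cells of a type and less RNA per cell cannot be told apart.

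Among the 8 measured members, FBLN2 rose 3.10-fold in Hyperloaded libraries and was the only one called, and no member fell by this test. FBLN5 stood 1.83-fold and FBN1 1.33-fold above the controls, FBLN7 stood at 0.499 and ELN at 0.640 of the controls, and FBLN1, MFAP2 and FBN2 lay between 0.906 and 1.06, all without a call. Across all tested genes 19.2% were called, 10.8% higher and 8.44% lower, so 1 of 8 members (12.5%) is a share near the background. The groups overlapped in CPM for every member, while they did not overlap for 6.79% of tested genes. An unadjusted p under 0.05 was found for 4 members (FBLN2, FBLN5, FBLN7 and FBN1), against 36.5% of all tested genes. The median log2 fold change of the members was 0.07, beside 0.005 over all tested genes. All 8 members passed the count minimum in both groups, and the lowest count of any of them in any library was 176.

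**Figure D1:**
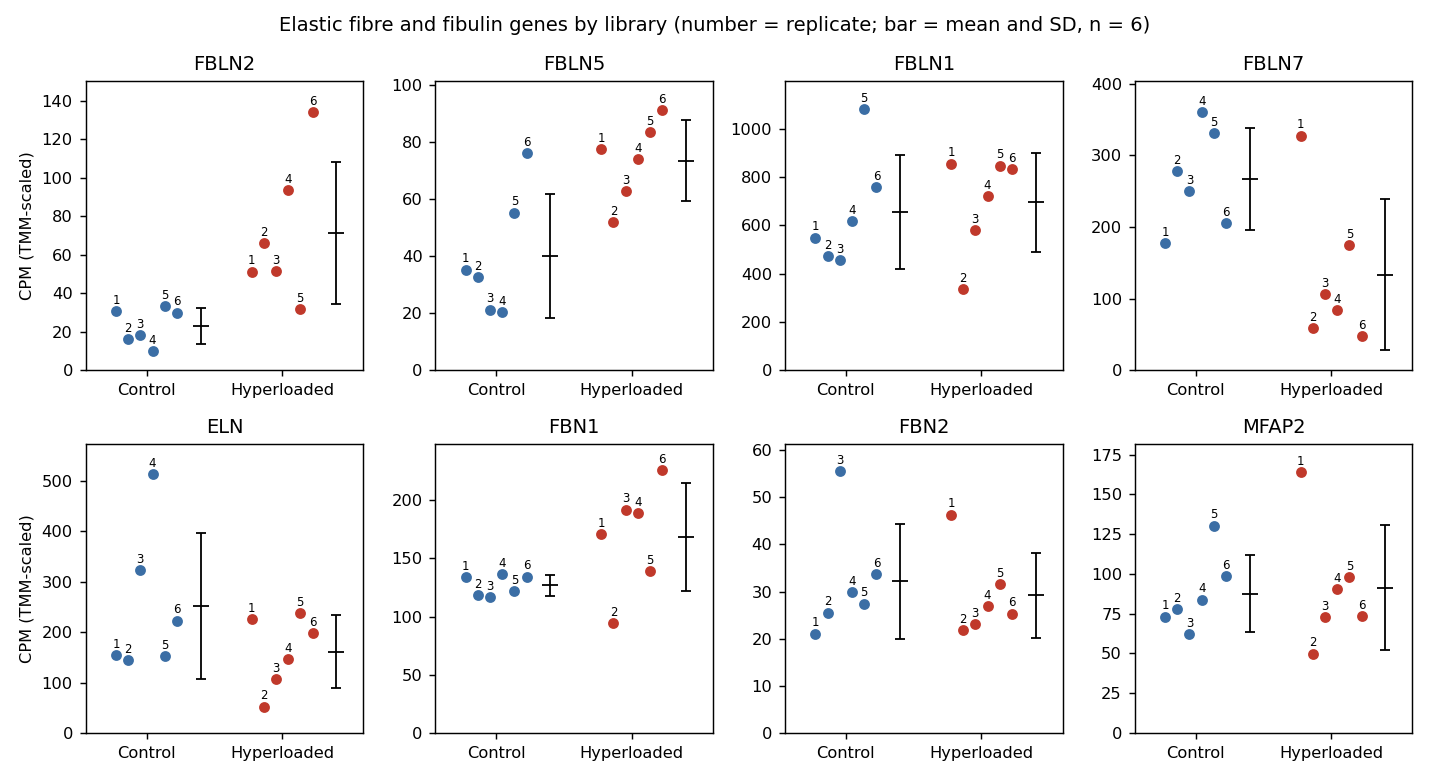
Scaled CPM of the 8 measured members in each library (y axis, CPM), with 6 control (blue) and 6 Hyperloaded (red) libraries, the replicate number above each point, and the mean with SD at the right of each group. For FBLN2, 5 of 6 Hyperloaded points lie above all controls, and for FBLN7, 5 of 6 lie below all controls with replicate 1 at 328 CPM.

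FBLN2 encodes fibulin-2, a secreted glycoprotein that binds fibrillin, tropoelastin and basement membrane proteins. In control replicates 1 to 6 it was at 30.6, 16.2, 18.2, 9.96, 33.4 and 29.9 CPM. In Hyperloaded replicates 1 to 6 it was at 51.3, 66.1, 51.4, 93.7, 31.8 and 134 CPM. Replicates 6 and 4 were the high ones, and 5 of the 6 Hyperloaded libraries exceeded every control, with replicate 5 just under the highest control. The means were 23.0 ± 9.53 and 71.4 ± 37.0 CPM (SD, n = 6 each), a log2 fold change of 1.63 ± 0.37 (SE; 95% interval 0.84 to 2.43; edgeR adjusted p = 0.0134). The call held with each library left out in turn, at log2 fold changes of 1.35 to 1.77 and edgeR adjusted p of 0.0058 to 0.0355. Without Hyperloaded replicates 2, 3 and 6, which carry the muscle transcripts, the change was 1.36 with an edgeR adjusted p of 0.0954, so that the call was lost.

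FBLN5 encodes fibulin-5, which binds tropoelastin and integrins and is needed for elastic fibre assembly in mice. Control replicates 1 to 6 gave 35.2, 32.5, 21.2, 20.4, 55.2 and 76.0 CPM. Hyperloaded replicates 1 to 6 gave 77.4, 51.9, 62.6, 73.9, 83.4 and 91.0 CPM. All 6 Hyperloaded libraries were above the control median of 33.9 CPM and 3 were above every control, with control replicates 5 and 6 inside the Hyperloaded range. The means were 40.1 ± 21.6 and 73.4 ± 14.2 CPM (SD, n = 6 each), and the log2 fold change of 0.87 ± 0.30 (SE; 95% interval 0.22 to 1.53) missed the threshold at an edgeR adjusted p of 0.0591. Without control replicate 6, the highest of its group, it was 1.16 with an edgeR adjusted p of 0.0146.

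FBLN7 encodes fibulin-7, a small secreted adhesion protein of teeth, cartilage and other connective tissues. It was among the transcripts that the study itself selected from these samples for a further assay, so its direction here is not independent of that choice. Control replicates 1 to 6 were at 177, 278, 251, 361, 331 and 206 CPM. Hyperloaded replicates 1 to 6 were at 328, 58.3, 107, 84.5, 175 and 47.8 CPM. Replicate 1 lay in the upper part of the control range and the other 5 lay below every control, though replicate 5 did so narrowly. The means were 267 ± 70.9 and 133 ± 105 CPM (SD, n = 6 each), and the log2 fold change of −1.0 ± 0.42 (SE; 95% interval −1.91 to −0.09) was not called at an edgeR adjusted p of 0.105. Leaving out Hyperloaded replicate 1 gave −1.50 with an edgeR adjusted p of 0.0139, and leaving out the 3 libraries with muscle transcripts gave −0.44 with an edgeR adjusted p of 0.514.

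RefSeq places FBLN2 in the Sscrofa11.1 assembly at chr13:70757255-70830430 (minus strand, 18 exons in its longest transcript), FBLN5 at chr7:113423629-113526412 (minus strand, 11 exons) and FBLN7 at chr3:44215037-44266984 (minus strand, 8 exons). The 250 bases before the annotated start are shown for these 3, the members with the largest differences between groups, as read from the RefSeq genome and written on the gene's strand. Capitals mark matches, on either strand, to the GC box GGGCGG or to the TEAD site CATTCC.
FBLN2, chr13:70830431-70830680: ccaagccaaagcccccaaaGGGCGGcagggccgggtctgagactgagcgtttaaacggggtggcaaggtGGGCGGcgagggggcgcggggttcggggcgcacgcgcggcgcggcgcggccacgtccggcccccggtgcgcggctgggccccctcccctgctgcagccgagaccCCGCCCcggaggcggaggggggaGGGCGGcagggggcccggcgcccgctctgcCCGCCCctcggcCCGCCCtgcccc
FBLN5, chr7:113526413-113526662: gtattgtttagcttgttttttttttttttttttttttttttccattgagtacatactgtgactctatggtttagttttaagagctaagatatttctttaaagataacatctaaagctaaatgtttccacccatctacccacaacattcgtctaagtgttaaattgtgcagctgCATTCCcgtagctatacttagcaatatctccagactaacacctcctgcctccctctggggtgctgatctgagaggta
FBLN7, chr3:44266985-44267234: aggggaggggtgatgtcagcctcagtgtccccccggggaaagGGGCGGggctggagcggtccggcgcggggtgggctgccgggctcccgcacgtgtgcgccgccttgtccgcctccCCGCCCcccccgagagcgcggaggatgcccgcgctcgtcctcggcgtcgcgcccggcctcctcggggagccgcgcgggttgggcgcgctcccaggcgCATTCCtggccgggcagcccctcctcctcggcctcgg
The GC content was 81.2% for FBLN2, 79.2% for FBLN7 and 36.0% for FBLN5, beside a median of 57.6% over 19544 promoters of this length. The GC box was found 6 times before FBLN2, 2 times before FBLN7 and 0 times before FBLN5, and in 45.9% of all promoters. The TEAD site was found once each before FBLN5 and FBLN7, and in 10.3% of all promoters. The TATA box TATAAA (9.76% of promoters), the CCAAT box CCAAT (31.9%) and the AP-1 site TGANTCA (5.25%) were found in none of the 3. No matches shown overlap, and a match describes the sequence only.

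FBLN1, which encodes fibulin-1, a matrix protein that binds fibronectin, laminin and elastic fibres, was the most abundant member. It ranged from 455 to 1083 CPM in controls (median 583) and from 337 to 856 CPM in Hyperloaded libraries (median 778). The groups overlapped over most of their range, and the log2 fold change of 0.09 (95% interval −0.50 to 0.68; edgeR adjusted p = 0.844) spans both directions. MFAP2 encodes MAGP-1, a glycoprotein of fibrillin microfibrils. It ranged from 62.1 to 130 CPM in controls and from 49.9 to 164 CPM in Hyperloaded libraries. The log2 fold change was 0.06 (95% interval −0.51 to 0.63, edgeR adjusted p = 0.890). Its sign turned in 2 of 12 fits with a library left out, among them that without Hyperloaded replicate 1 (−0.19).

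ELN, the elastin core of the fibre, was at 154, 145, 323, 513, 152 and 223 CPM in control replicates 1 to 6. In Hyperloaded replicates 1 to 6 it was at 226, 52.4, 106, 146, 238 and 199 CPM. The spread of the controls came mainly from replicates 4 and 3, and Hyperloaded replicates 2 and 3 were the only ones under every control. The means were 252 ± 145 and 161 ± 72.9 CPM (SD, n = 6 each), a log2 fold change of −0.64 ± 0.40 (SE; 95% interval −1.51 to 0.22; edgeR adjusted p = 0.261).

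FBN1, the main fibrillin of postnatal microfibrils, was at 134, 118, 117, 137, 122 and 134 CPM in control replicates 1 to 6. In Hyperloaded replicates 1 to 6 it was at 171, 94.5, 192, 189, 139 and 226 CPM. The 6 controls were close together, and 5 Hyperloaded libraries lay above and 1, replicate 2, below them all. The log2 fold change was 0.41 ± 0.18 (SE; 95% interval 0.01 to 0.80; edgeR adjusted p = 0.127), and without replicate 2 it was 0.53 with an edgeR adjusted p of 0.0225. FBN2, the fibrillin made mainly in development, ranged from 21.1 to 55.6 CPM in controls and from 21.9 to 46.3 CPM in Hyperloaded libraries, with a log2 fold change of −0.14 (95% interval −0.67 to 0.38; edgeR adjusted p = 0.698). Its sign turned when control replicate 3, the highest library, was left out (0.085).

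**Figure D2:**
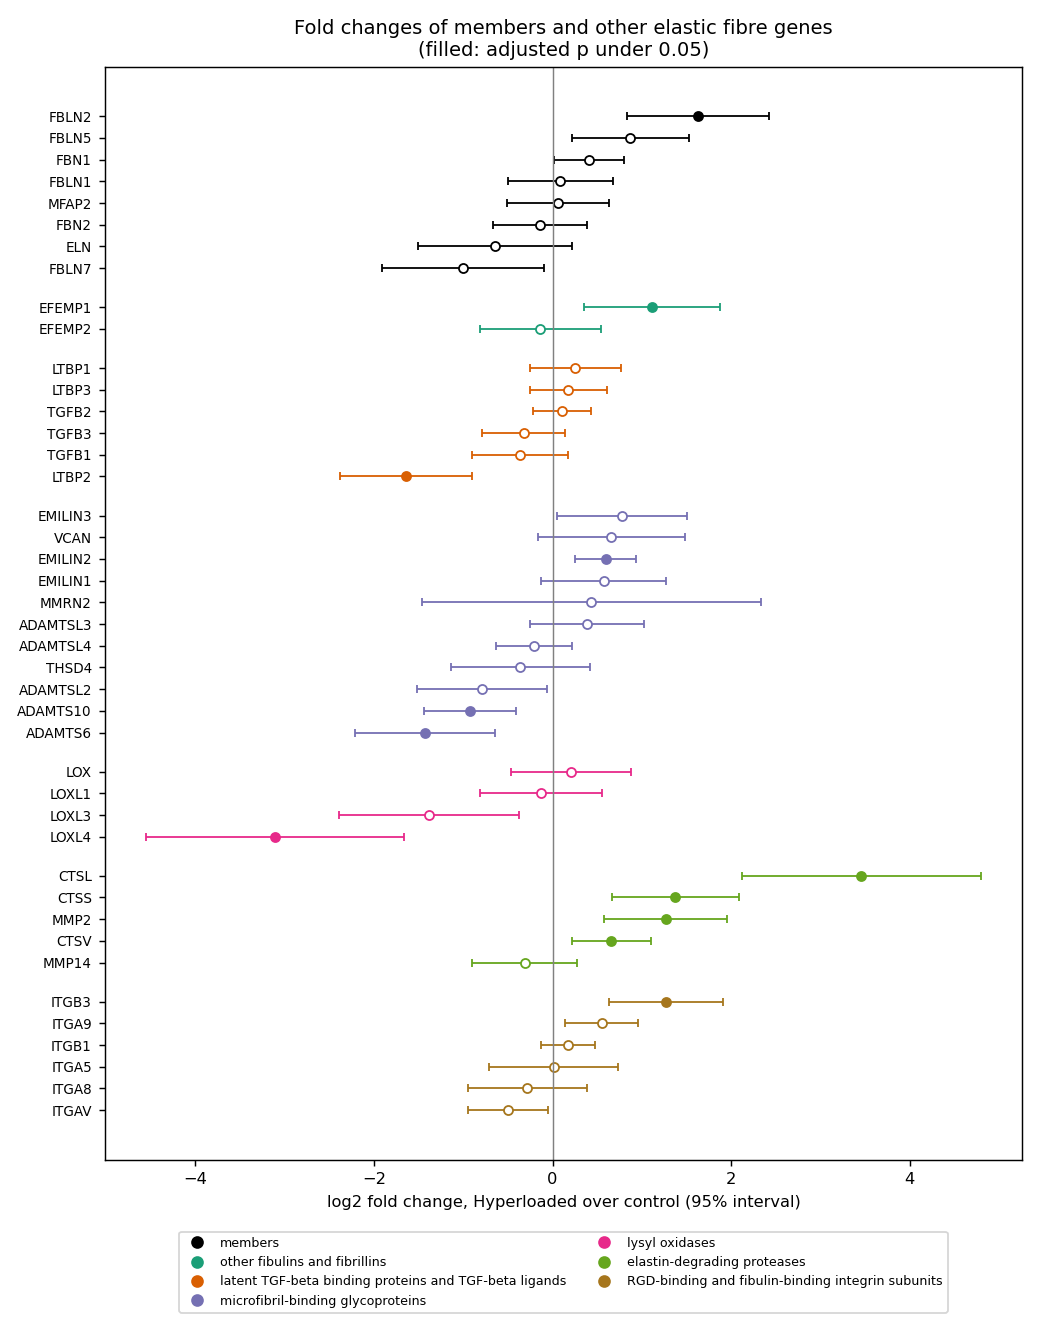
Log2 fold change, Hyperloaded over control, of the 8 members and of the 34 tested genes of 6 lists of other elastic fibre genes (x axis), with the 95% interval of edgeR's fit from 6 libraries a group. Filled points have an adjusted p under 0.05: FBLN2 among the members, and 7 higher and 4 lower among the others.

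The members differed in how much they varied between libraries of a group. The coefficient of variation of FBN1 was 7.04% in the 6 controls, and 4.38% of tested genes varied less. It was 57.6% for ELN and 54.0% for FBLN5, with 93.9% and 92.9% of tested genes varying less. Over all tested genes the median was 19.5% in controls and 26.3% in Hyperloaded libraries. Among Hyperloaded libraries the order changed: FBLN7 had 79.1% (95.1% of tested genes varied less) and FBLN5 19.3% (29.4% varied less), while FBN1 had 27.3%. No test of these spreads was made. The control spread is between 6 pigs, while the Hyperloaded libraries came from 4 pigs, so the 2 spreads are not of the same kind.

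Hyperloaded replicate 2, the library with the highest muscle signal, was the lowest of its group for 6 of 8 members (ELN, FBN1, FBN2, FBLN1, FBLN5 and MFAP2), where it was the lowest for 23.7% of all tested genes. The part of its muscle transcripts in these values was not tested. Hyperloaded replicate 1 was the highest of its group for 4 members (FBN2, FBLN1, FBLN7 and MFAP2), against 15.8% of tested genes. Together the 8 members took 0.106 to 0.163% of counts in controls and 0.0915 to 0.221% in Hyperloaded libraries.

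Per kilobase of the longest RefSeq transcript, control levels ran from FBLN1 at 227 ± 81.6 CPM per kb through FBLN7 at 118 ± 31.5, ELN at 71.7 ± 41.3, MFAP2 at 55.0 ± 15.1, FBLN5 at 16.3 ± 8.79 and FBN1 at 13.3 ± 0.94 down to FBLN2 at 5.39 ± 2.23 and FBN2 at 3.13 ± 1.19 (SD, n = 6). ELN and MFAP2, and FBLN5 and FBN1, are neighbours in that order whose means differ by less than the larger SD. In Hyperloaded libraries the order was FBLN1 at 240 ± 70.8 CPM per kb, FBLN7 at 59.2 ± 46.8, MFAP2 at 57.3 ± 24.7, ELN at 45.9 ± 20.7, FBLN5 at 29.8 ± 5.75, FBN1 at 17.7 ± 4.84, FBLN2 at 16.7 ± 8.65 and FBN2 at 2.84 ± 0.88. From FBLN7 to FBLN5 in that order, and between FBN1 and FBLN2, neighbouring means differed by less than the larger SD.

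Ratios between members within a library do not depend on how libraries are scaled, and 3 were compared by 2-sided exact permutation tests over the 12 libraries, whose smallest possible p is 0.00216. The ratio of FBLN7 to FBLN1 counts was 0.322, 0.586, 0.551, 0.585, 0.306 and 0.271 in control replicates 1 to 6. In Hyperloaded replicates 1 to 6 it was 0.383, 0.173, 0.184, 0.117, 0.207 and 0.0575. Only Hyperloaded replicate 1 lay within the control range. The mean log2 ratio was 1.37 lower in Hyperloaded libraries (difference −1.37; exact permutation p = 0.00866, adjusted over the 3 ratios 0.0260). The study had selected FBLN7 from these same samples, so this p-value is not independent of that choice. With a library left out in turn the difference was −1.62 to −1.07 and the adjusted exact p 0.00649 to 0.0649, under 0.05 in 7 of 12 cases and not when control replicate 2, 3 or 4 or Hyperloaded replicate 4 or 6 was left out. Without the 3 libraries with muscle transcripts it was −0.98 with an adjusted exact p of 0.179.

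The ratio of ELN to FBN1 counts, the elastin core against its main microfibril scaffold, ran from 1.15 to 3.75 in controls and from 0.553 to 1.71 in Hyperloaded libraries, with 4 of the latter below every control. The difference of the mean log2 ratio was −1.0 (exact permutation p = 0.0368, adjusted 0.0552), and it passed without control replicate 1 (−1.12, adjusted exact p = 0.0487) or Hyperloaded replicate 5 (−1.19, adjusted exact p = 0.0260). FBN2 to FBN1 counts differed by −0.48 on the log2 scale (exact permutation p = 0.158, adjusted 0.158).

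Since the share of cartilage collagen differed between libraries, the members were set against log2 of COL2A1 over COL1A2 counts in the 6 controls, which came from separate pigs. In control replicates 1 to 6 this ratio was 1.30, 2.10, 2.28, 4.08, −0.43 and −0.65. FBLN5 was lower where cartilage collagen was higher (Pearson r = −0.94, exact permutation p = 0.00972, adjusted over 8 members 0.0444; Spearman rho = −1.0, exact permutation p = 0.00278, adjusted 0.0222), and r was −0.92 without the 2 libraries farthest from the median ratio. With the mean log2 CPM of the cartilage markers in place of the collagen ratio, FBLN5 gave r = −0.85 and did not pass (exact permutation, adjusted p = 0.144). FBLN2 gave r = −0.92 (exact permutation p = 0.0111, adjusted 0.0444) with rho = −0.77 (exact permutation p = 0.103, adjusted 0.411), and r = −0.86 without the 2 farthest libraries. None of the other 6 members passed, with r from −0.65 for FBLN1 to 0.66 for ELN. Over the 4 controls left without the 2 farthest libraries, r was −0.99 for FBLN1 and −0.94 for MFAP2, and that of FBLN7 turned from 0.40 to −0.41. No test was made on these 4 libraries, which are too few for r to show a relation.

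The Hyperloaded libraries lay further along the same axis, at −0.71, −1.50, −2.79, −5.94, −1.09 and −6.01 for replicates 1 to 6, below every control. Replicates 4 and 6, with the lowest collagen ratio, held the highest FBLN2. FBLN5 was not ordered by the ratio across these 6 libraries. Replicates 1 and 5, with the highest ratios, were at 77.4 and 83.4 CPM, and replicates 2, 3, 4 and 6 at 51.9, 62.6, 73.9 and 91.0 CPM. Where the ratios came closest, control replicates 5 and 6 had FBLN2 at 33.4 and 29.9 CPM and FBLN5 at 55.2 and 76.0 CPM, beside 51.3 and 31.8 CPM and 77.4 and 83.4 CPM in Hyperloaded replicates 1 and 5. The groups do not overlap in this ratio, so that loading and the collagen makeup of the wedge cannot be told apart for FBLN2, FBLN5 or any other member. On the mean log2 CPM of the cartilage markers, Hyperloaded replicate 1 (9.84) lay within the control range of 8.38 to 11.4. The other Hyperloaded replicates lay below that range. TNMD, a marker of tendon cells, was at 0.566 to 125 CPM in controls and 147 to 740 CPM in Hyperloaded libraries. COL3A1, a fibrillar collagen of the same marker list, went the other way, at 31587 to 49016 CPM and 3635 to 34766 CPM (log2 fold change −1.76; edgeR adjusted p = 0.0381).

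**Figure D3:**
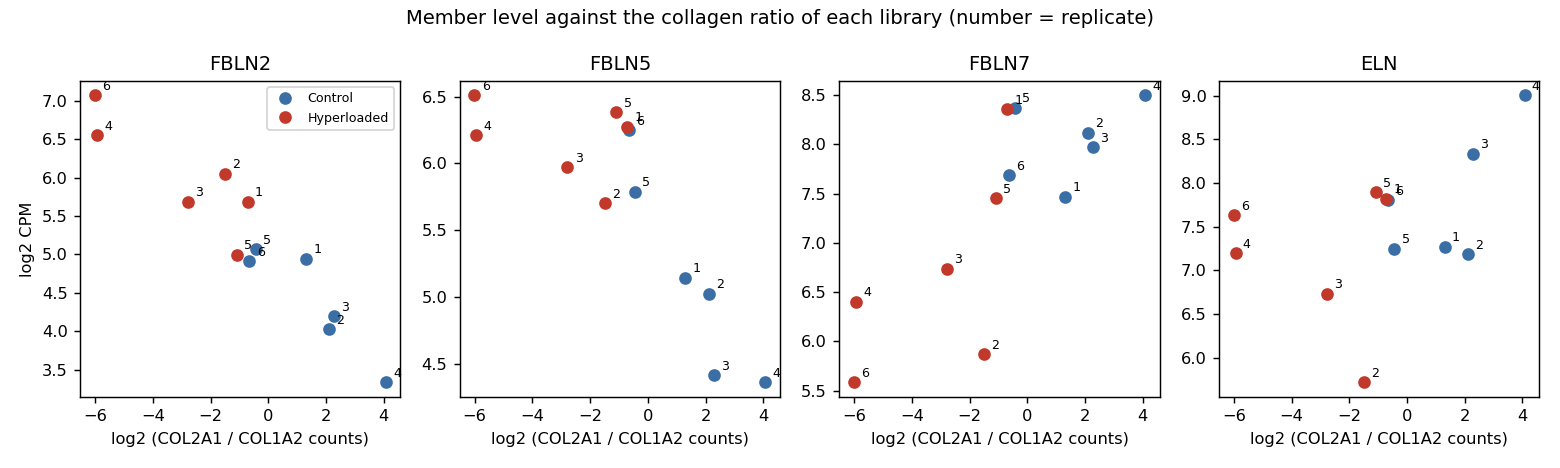
Log2 CPM of FBLN2, FBLN5, FBLN7 and ELN (y axis) against log2 of COL2A1 over COL1A2 counts (x axis) in 6 control (blue) and 6 Hyperloaded (red) libraries, numbered by replicate. All Hyperloaded libraries have a lower collagen ratio than all controls. Over the libraries of both groups, and among the controls alone, FBLN2 and FBLN5 tend to be lower where the ratio is higher. FBLN5 is not ordered by the ratio across the 6 Hyperloaded libraries.

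Other genes of the elastic fibre system were taken as 6 lists of 49 genes, of which 43 were matched and 34 tested. Of these, 7 were higher, 4 lower and 23 not called, beside 10.8% and 8.44% of all tested genes called higher and lower. Of 10 elastin-degrading proteases named, 9 were matched and 5 tested, with 4 called higher and 0 lower. MMP7, MMP9, MMP12 and ELANE missed the count minimum, and MMP14 was not called (−0.31, edgeR adjusted p = 0.428). MMP2, a gelatinase that also cleaves elastin, was at 207 to 624 CPM in controls and 661 to 1126 CPM in Hyperloaded libraries with no overlap, a log2 fold change of 1.27 ± 0.32 (SE; edgeR adjusted p = 0.0196). CTSL, a lysosomal cysteine protease, was at 1.92 to 4.37 CPM and 8.68 to 80.7 CPM, with no overlap and the highest levels in replicates 6 and 3 (3.46 ± 0.62, SE; edgeR adjusted p = 0.0069). CTSS, a cathepsin of macrophages and other antigen-presenting cells, rose by 1.38 ± 0.33 (SE; edgeR adjusted p = 0.0161), and macrophage markers were higher in the same libraries (5 of 6 tested), a relation whose part in the result was not tested. CTSV, a close relative of CTSL with which reads could be shared, rose by 0.66 (edgeR adjusted p = 0.0420), and passed in 3 of 12 fits with a library left out (those without control replicate 6 or Hyperloaded replicate 1 or 2).

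Among the other fibulins, EFEMP1 (fibulin-3) was called higher at 1.11 ± 0.35 (SE; edgeR adjusted p = 0.0439), a call that held in 2 of 12 fits with a library left out (those without control replicate 5 or Hyperloaded replicate 5), and EFEMP2 (fibulin-4, which tethers lysyl oxidase to tropoelastin) was not called at −0.14 (edgeR adjusted p = 0.779). LTBP2, which binds fibrillin-1 and fibulin-5, fell: it was at 51.6 to 146 CPM in controls and 12.5 to 42.9 CPM in Hyperloaded libraries, with no overlap (−1.64 ± 0.34, SE; edgeR adjusted p = 0.0108). It was the only one called of 6 tested latent TGF-beta binding proteins and ligands, and TGFB3 gave −0.32 (edgeR adjusted p = 0.289). The study's own selections from these samples contain LTBP2, LOXL3, ADAMTS10, MMP2 and CTSS, so the directions of these genes are not independent of that choice.

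Of 11 tested microfibril-binding glycoproteins, EMILIN2, an elastin-binding glycoprotein, rose by 0.59 with no overlap (edgeR adjusted p = 0.0239). Its call was lost without control replicate 2 (0.54, edgeR adjusted p = 0.0586) or Hyperloaded replicate 6 (0.47, edgeR adjusted p = 0.0503). The microfibril-associated metalloproteinases ADAMTS6 and ADAMTS10 fell by 1.43 and 0.92 on the log2 scale (edgeR adjusted p = 0.0199 and 0.0209). ADAMTS6 was low in control replicates 5 and 6 too, at 5.87 and 7.48 CPM beside 17.3 to 28.9 CPM in the other controls. Of the 4 tested lysyl oxidases, which cross-link elastin and collagen, LOXL4 fell by 3.11 (SE 0.67; edgeR adjusted p = 0.0118), from 43.6 to 565 CPM in controls to 11.2 to 64.7 CPM. LOXL4 was also lowest, at 53.2 and 43.6 CPM, in control replicates 5 and 6, where the collagen ratio was lowest. LOXL3 stood at −1.38 (edgeR adjusted p = 0.0538) and passed without Hyperloaded replicate 1 (−1.73, edgeR adjusted p = 0.0234) or 5 (−1.67, edgeR adjusted p = 0.0248), and LOX, the main cross-linking enzyme, at 0.21 (edgeR adjusted p = 0.660). Of 6 tested integrin subunits, ITGB3 was called at 1.27 ± 0.30 (SE; edgeR adjusted p = 0.0147), with its highest levels in Hyperloaded replicates 2, 6 and 3, and ITGA9 was not, at 0.55 (edgeR adjusted p = 0.0563), except without Hyperloaded replicate 5 (0.60, edgeR adjusted p = 0.0420). Without those 3 libraries with muscle transcripts, 1 of these 34 genes, CTSL, was called (1.73, edgeR adjusted p = 0.0199), and ITGB3 was at 0.46.

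Over the 12 libraries, pairs of members were related to different degrees, given here as a description across libraries that share scaling and group. FBLN1 and MFAP2 had r = 0.83, and 0.83 after the group means were removed. FBLN2 and FBLN5 had r = 0.79, and 0.55 after group means were removed, and FBLN2 and FBLN7 had r = −0.81 and −0.63. ELN and FBN1, the core and its scaffold, had r = 0.17, and 0.49 after group means were removed.

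The tested genes with a symbol whose log2 CPM was most like a member over the 12 libraries were FHOD3, SERINC1 and TMEFF2 for FBLN2 (r = 0.97, 0.96 and 0.96), FTL, BCOR and CYBRD1 for FBLN5 (r = 0.98, 0.98 and 0.97), and TMEM9, DLEC1 and ARSL for FBLN7 (r = 0.95, 0.95 and 0.95). RNF13, CD63 and RILPL2 were most like FBLN1 (r = 0.97, 0.93 and 0.92) and SNRPN, DUSP14 and AOAH most like MFAP2 (r = 0.95, 0.94 and 0.93). ELN had THOC3, HMGB2 and SEPTIN2 (r = 0.90, 0.86 and 0.85), FBN1 had ANXA5, GNPDA2 and RBM26 (r = 0.93, 0.89 and 0.88), and FBN2 had CERS5, STRADA and CDKN2D (r = 0.86, 0.85 and 0.78). With 12 libraries and 8391 tested genes with a symbol, some high values of r are found for any gene.

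**Figure D4:**
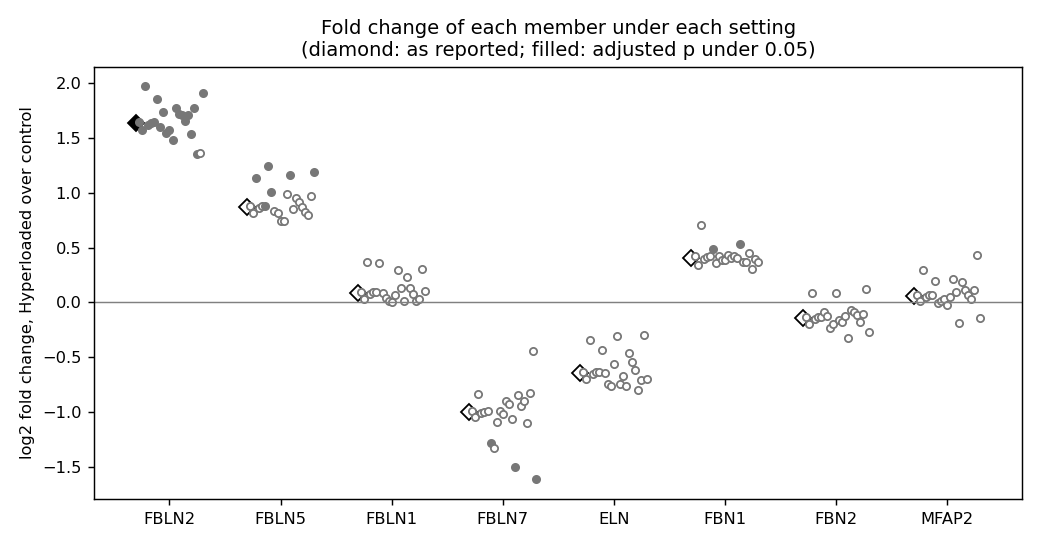
Log2 fold change of each member, Hyperloaded over control (y axis), as reported (diamond) and under each of 22 other settings (circles), filled where the adjusted p is under 0.05. FBLN2 keeps a positive value in all 22, and the sign of FBN2 and of MFAP2 turns in some.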

How the data were processed

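mRNA libraries of ventral annulus fibrosus were grouped by the labels (6 control, 6 Hyperloaded). The authors made reads with CASAVA 1.6 and mapped them to Sscrofa11.1 in JMP Genomics 7.1, allowing 2 mismatches per read, and the deposited table gives expected counts for each gene without normalization, so that reads matching several genes can be split. Strand use was not given in the sources used here. The identifiers of the table end at 31069, and the name table used for symbols holds 3819 higher ones, so the counts rest on an earlier gene set and the build behind them was not settled. Symbols were found for 11700 of 22198 identifiers (52.7%), and 3179 genes had 0 rounded counts in every library. Chromosome positions, transcript lengths and promoters are RefSeq's for Sscrofa11.1, matched by symbol.

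Expected counts were rounded and fitted in edgeR 4.0.16 (R 4.3.3) with no covariate, over genes that reached 10 counts in all libraries of either group, and with a prior count of 2 for log2 CPM. TMM factors ran from 0.711 to 1.36. Standard errors come from the F statistic of each test. Ratios and correlations were tested by exact permutation in Python 3.11.15 with numpy 2.4.6, with ranks from scipy 1.17.1 and 1 added to counts in ratios. On simulated counts for the Hyperloaded comparison (12275 genes), the fit recovered 10 of 67 genes changed 1.5-fold, 31 of 67 changed 2-fold and 63 of 66 changed 4-fold, with 7 false calls. The simulated libraries were independent and no other genes were changed. These rates therefore need not hold for data with shared pigs and many called genes.

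Members and lists were chosen with earlier results of these data known. Named genes are all matched members, every called gene of the other lists (or the 2 with the smallest p where fewer than 2 were called), LOX and COL3A1, which were added after their values were seen, and the 3 tested genes most like each member. Alternatives were other scalings, count minimums, DESeq2 1.42.0, limma 3.58.1 voom with quality weights, the replicate number as a block, each library left out, and the omission of libraries with muscle transcripts or noted as lacking raw data.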

Additional observations from a re-analysis of the deposited data

Results flagged for a closer look

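In 4 of 46 groups of 6 libraries examined (23 genes in 2 groups), 1 library lay far from the others by Dixon's criterion, where chance gives about 1 in 20. FBN2 was at 55.6 CPM in control replicate 3, with the next control at 33.7 CPM. EMILIN2 was at 19.9 CPM in control replicate 2, below the next at 23.8 CPM. LOXL3 was at 644 CPM in control replicate 4, above the next at 402 CPM, in the library with the highest collagen ratio. CTSS was at 39.3 CPM in control replicate 1, above the next at 14.9 CPM.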

How the results depend on the processing

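The direction of FBLN2, FBLN5, FBN1, FBLN1, FBLN7 and ELN held under all 22 alternatives. With library size only, the median of all genes moved to 0.29 on the log2 scale, 2 members were called higher (FBLN5 at 1.14), FBN2 turned to 0.085 and EFEMP2 to 0.075, and 319 genes were called lower. DESeq2 called 2 members higher (FBLN5 at 0.88, adjusted p = 0.0250). With limma voom and quality weights 3 members were called higher and 1 lower (FBN1 0.49, FBLN5 1.25, FBLN7 −1.28), 7 other elastic fibre genes and 1830 of all genes were called lower, and EFEMP2 turned to 0.10. By the methods the groups were separate pigs, so equal replicate numbers could not mark a shared pig. The r of same-numbered deviations (−0.12 to 0.26) is no test of this, and the replicate block pairs unrelated libraries. Sharing of pigs among the Hyperloaded libraries was not examined. With the replicate block 2 members were called higher (FBLN5 1.01), 2 other elastic fibre genes lower, MFAP2 turned to −0.0044, and the FBLN7 to FBLN1 ratio, stayed at −1.37 (exact sign-flip, adjusted p = 0.188), in a test whose smallest p is 0.0313, or 0.0938 adjusted where 1 of the 3 ratios reaches it, so that its miss says little. Without the 3 libraries with muscle transcripts 0 members were called higher (FBLN2 1.36), 1 other elastic fibre gene was called higher and 0 lower, all calls fell to 127 higher and 40 lower, FBN2 turned to 0.12, EFEMP2 to 0.26, and the FBLN7 to FBLN1 ratio was −0.98; fewer libraries entered that fit. Without the 3 libraries noted as lacking raw data 2 members were called higher and 1 lower (FBLN5 1.19, FBLN7 −1.61), 4 other genes higher, and MFAP2 turned to −0.14. With the chondrocyte list in place of the collagen ratio, FBLN5 gave r = −0.85 and lost its call.

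With 1 library left out in turn, members called ran from 1 to 2 higher and from 0 to 1 lower, other elastic fibre genes from 4 to 8 higher and from 4 to 6 lower, and all genes from 723 to 1767 higher and from 513 to 1490 lower. Log2 fold changes ran from −0.80 to −0.31 for ELN, 0.31 to 0.53 for FBN1, −0.32 to 0.085 for FBN2, 0.001 to 0.29 for FBLN1, 1.35 to 1.77 for FBLN2, 0.74 to 1.16 for FBLN5, −1.50 to −0.83 for FBLN7, −0.19 to 0.21 for MFAP2 and −0.31 to 0.038 for EFEMP2. The ELN to FBN1 ratio ran from −1.19 to −0.78 and the FBLN7 to FBLN1 ratio from −1.62 to −1.07. The causes were not tested. Changes of 1.5-fold and of 2-fold were often missed in the simulation (10 of 67 and 31 of 67 recovered). Members without a call may therefore have changed by 1.5-fold. As a rise or a fall, that change lay inside the 95% interval of each of them. A 2-fold change lay inside the interval for ELN, FBLN5 and FBLN7, and outside it for FBN1, FBN2, FBLN1 and MFAP2. The intervals take the libraries as separate, and are too narrow to the extent that libraries share a pig.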
